A study of Homo sapiens with 2 samples.

Results

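The genes described here are the 3 DNA methyltransferases DNMT1, DNMT3A and DNMT3B, the methyltransferase cofactor UHRF1, and the 3 TET dioxygenases TET1, TET2 and TET3. They were chosen by name and matched by Entrez ID, and all 7 of the 27685 genes in the files were found. The cells were PLC/PRF/5, a human line derived from a hepatocellular carcinoma, and their RNA was sequenced as poly(A)-selected, stranded libraries. One culture was exposed for 24 h to 6 µM JIB-04, a broad inhibitor of Jumonji-type histone demethylases, and the other for 24 h to its vehicle DMSO. On hg19, the genes lie at chr19:10244020-10305811 (DNMT1, minus strand), chr19:4903092-4962165 (UHRF1, plus), chr2:25455830-25565459 (DNMT3A, minus), chr20:31350191-31397162 (DNMT3B, plus), chr10:70320117-70454239 (TET1, plus), chr4:106067032-106200960 (TET2, plus) and chr2:74213531-74335302 (TET3, plus). The label field for treatment calls the DMSO library untreated, but its title and the treatment protocol name DMSO. There was 1 library per condition. No test between conditions was therefore possible, every difference below is a difference between 2 libraries, and the intervals cover counting error only. Levels were in TPM, the share of a transcript among all transcripts after correction for length, summed over the annotated transcripts of a gene. In RNA from a whole culture, fewer cells of a kind and less RNA per cell cannot be told apart.

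In vertebrate DNA, cytosines followed by guanine (CpG) can carry a methyl group. DNMT3A and DNMT3B place it on unmethylated DNA, and DNMT1 copies it to the new strand behind the replication fork. UHRF1 brings DNMT1 to hemimethylated sites by binding them and ubiquitinating histone H3. TET enzymes oxidise 5-methylcytosine stepwise, which leads to unmethylated cytosine by dilution in replication or by base excision. TET enzymes need iron and 2-oxoglutarate, as the Jumonji demethylases do.

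The 2 libraries held an estimated 23721989 fragments with JIB-04 and 28187793 with DMSO. All 10 hepatocyte lineage markers had some RNA, and 6 had a lower and 4 a higher level with JIB-04. KRT18 was at 2214 TPM with JIB-04 and 4484 TPM with DMSO, and APOB at 32.9 TPM with JIB-04 and 103 TPM with DMSO. FGB was at 961 TPM with JIB-04 and 771 TPM with DMSO, and TTR at 7.06 TPM with JIB-04 and 3.91 TPM with DMSO. ALB, which encodes albumin, was low, at 4.53 TPM with JIB-04 and 9.74 TPM with DMSO, and APOA1 was at 0.99 TPM with JIB-04 and 1.34 TPM with DMSO. Of 11 markers of leukocytes, endothelium and stroma, PTPRC and CDH5 were listed at 0 in both libraries and 3 reached 1 TPM in either, COL1A1 (10.6 TPM with JIB-04 and 16.0 TPM with DMSO), CD14 (1.37 TPM with JIB-04 and 6.05 TPM with DMSO) and COL3A1 (0.77 TPM with JIB-04 and 1.22 TPM with DMSO). Those 11 summed to 14.0 TPM with JIB-04 and 24.3 TPM with DMSO, and their part in the results was not tested. Over the 14450 genes at 1 TPM or more in either library, the median log2 ratio of TPM + 1, JIB-04 over DMSO, was -0.15. Against that shift, scaling the libraries to a common median adds about 0.15 to most ratios, and it changes the share of genes at least 2-fold away from 1 that were higher with JIB-04 to 62.0%, against 46.5% without it and 57.0% after quantile normalization.

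The sequences upstream of the maintenance genes are shown because DNMT1 and UHRF1 were the 2 genes of the set with the lowest ratios. The windows run from 250 bases before to 50 bases after a RefSeq gene start, on GRCh38.p14, on the strand of the gene. They were searched on both strands for the octamers TTTCCCGC, TTTCGCGC, TTTGCCGC and TTTGGCGC, the letters of the classical E2F site, which occurs at many genes of DNA replication. Capitals mark a match. The DNMT1 window is chr19:10194904-10195203 on the minus strand. The UHRF1 windows printed are chr19:4909251-4909550, which holds the start of transcript NM_001048201, and chr19:4909894-4910193, which holds the start of NM_001290051, both on the plus strand. Another UHRF1 window, chr19:4910117-4910416 at the start of NM_013282, held no match and is not printed.
DNMT1: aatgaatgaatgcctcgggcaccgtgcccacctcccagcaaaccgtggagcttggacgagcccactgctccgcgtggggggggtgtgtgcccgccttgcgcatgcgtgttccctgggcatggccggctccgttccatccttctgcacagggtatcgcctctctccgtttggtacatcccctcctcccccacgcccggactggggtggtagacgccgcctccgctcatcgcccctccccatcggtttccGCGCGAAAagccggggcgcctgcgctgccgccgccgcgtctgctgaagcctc
UHRF1, start of NM_001048201: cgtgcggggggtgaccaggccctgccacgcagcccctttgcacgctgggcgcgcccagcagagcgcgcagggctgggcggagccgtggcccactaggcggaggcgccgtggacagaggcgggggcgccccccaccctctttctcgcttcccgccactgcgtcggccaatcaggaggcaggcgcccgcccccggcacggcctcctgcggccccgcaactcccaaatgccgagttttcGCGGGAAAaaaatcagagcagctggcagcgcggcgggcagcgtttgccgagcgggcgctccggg
UHRF1, start of NM_001290051: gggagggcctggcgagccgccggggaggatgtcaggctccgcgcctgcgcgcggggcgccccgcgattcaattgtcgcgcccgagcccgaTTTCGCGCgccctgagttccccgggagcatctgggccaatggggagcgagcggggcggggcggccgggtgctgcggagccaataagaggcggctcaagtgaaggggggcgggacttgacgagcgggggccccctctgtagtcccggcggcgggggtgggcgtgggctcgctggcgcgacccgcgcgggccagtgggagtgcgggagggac
In DNMT1 the match was TTTCGCGC on the opposite strand, at position -2 from the RefSeq start of the window. The nearest transcript start found in this window, of NM_001130823 and NM_001318731, was at position -126, so the match lies downstream of it. In the first UHRF1 window it was TTTCCCGC on the opposite strand, 14 bases before the start, and in the second it was TTTCGCGC on the gene's strand. The RefSeq table held 18 windows for the 7 genes, and these 3 were the only ones with a match. One of the octamers was found in 3.31% of all 35116 windows, which were not matched for CpG content. The unprinted UHRF1 window and those of DNMT3A, DNMT3B, TET1, TET2 and TET3 held none of these letters. That says nothing of other sites or of any factor. The 1 DNMT3B window lies at the start of NM_175850, which was listed at 0 in both libraries, and not at the start of the expressed forms. No transcript start was matched to the windows of TET1 and TET3 or to 1 of DNMT3A, so they may not lie at expressed starts. The printed windows were rich in CpG, with 30 in DNMT1 and 36 and 40 in the UHRF1 windows, where the median of all windows was 14. This was not particular to them, since windows of the other genes ranged from 3 in DNMT3B to 46 in 1 of DNMT3A.

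The transcripts of the maintenance machinery were lower with JIB-04. DNMT1, the most abundant gene of the set, was at 55.3 TPM with JIB-04 and 85.6 TPM with DMSO. Its log2 ratio was -0.62 (95% counting interval -0.69 to -0.56, from an estimated 2935 fragments with JIB-04 and 5501 with DMSO). UHRF1 was at 17.8 TPM with JIB-04 and 36.5 TPM with DMSO. Its log2 ratio of -0.99 had an interval of -1.12 to -0.87, based on 692 fragments with JIB-04 and 1723 with DMSO. The counting intervals of the 2 genes do not overlap. DNMT1 transcripts stood at 3.10 times those of UHRF1 with JIB-04 and 2.35 times with DMSO.

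Neither de novo enzyme differed by as much. DNMT3A was at 9.59 TPM with JIB-04 and 11.2 TPM with DMSO, a log2 ratio of -0.21 (interval -0.39 to -0.03). DNMT3B was at 14.0 TPM with JIB-04 and 16.3 TPM with DMSO, also a log2 ratio of -0.21 (interval -0.36 to -0.06). Both intervals contain the median of all genes, so the counts do not set either gene total apart from it. Separate parts of DNMT3A differed in opposite directions, as given below, though no interval was computed for the parts. Scaled to a common median, DNMT3A had a log2 ratio of -0.07 and DNMT3B one of -0.07.

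Of the TET genes, 2 were higher with JIB-04 and TET3 was level. TET2, a tumour suppressor of the blood lineage that lacks a CXXC domain of its own, was at 10.5 TPM with JIB-04 and 6.80 TPM with DMSO. Its log2 ratio was 0.56 (interval 0.44 to 0.68). TET1, which carries a CXXC domain for unmethylated CpG, was the least abundant gene of the set, at 4.02 TPM with JIB-04 and 2.65 TPM with DMSO, a log2 ratio of 0.46 (interval 0.29 to 0.63). TET3 was at 7.01 TPM with JIB-04 and 6.97 TPM with DMSO, with a log2 ratio of 0.01 (interval -0.12 to 0.13). TET2 made up 48.7% of TET transcripts with JIB-04 and 41.4% with DMSO, while TET3 made up 32.6% with JIB-04 and 42.5% with DMSO.

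**Figure D1:**
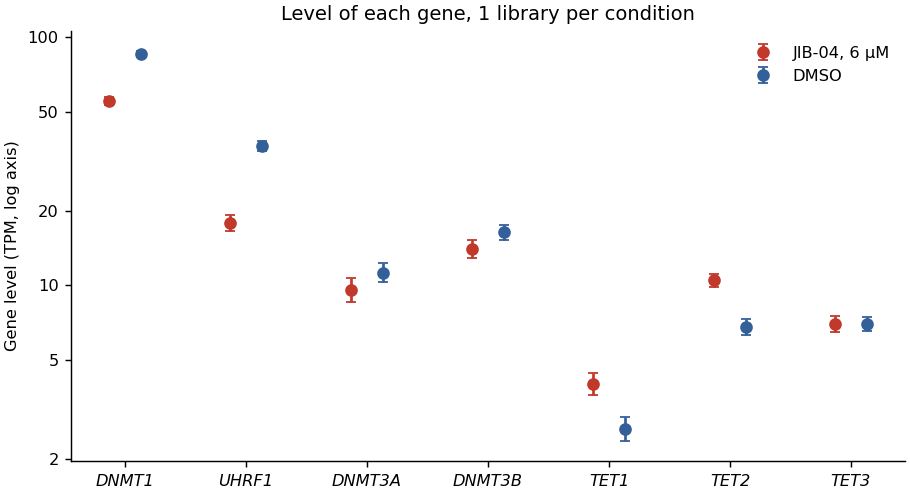
Level of each gene in TPM on a log axis, in the JIB-04 library (red, left of each pair) and the DMSO library (blue). Points are single libraries and bars are 95% Poisson intervals of the estimated fragments. DNMT1 and UHRF1 lie lower with JIB-04, TET1 and TET2 higher, and the TET3 points are level at 7.01 TPM with JIB-04 and 6.97 TPM with DMSO.

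Set in order of level, the genes ran DNMT1, UHRF1, DNMT3B, TET2, DNMT3A, TET3 and TET1 with JIB-04, and DNMT1, UHRF1, DNMT3B, DNMT3A, TET3, TET2 and TET1 with DMSO. TET2 thus stood above DNMT3A and TET3 with JIB-04 and below both with DMSO. The counting intervals of TET2 and DNMT3A overlapped with JIB-04 (9.83 to 11.1 TPM and 8.59 to 10.7 TPM), as did those of TET3 and TET2 with DMSO (6.53 to 7.43 TPM and 6.33 to 7.29 TPM). The 3 methyltransferases summed to 78.8 TPM with JIB-04 and 113 TPM with DMSO. The 3 TET genes summed to 21.5 TPM with JIB-04 and 16.4 TPM with DMSO. Methyltransferase transcripts therefore outnumbered TET transcripts 3.67 to 1 with JIB-04 and 6.89 to 1 with DMSO. DNMT1 alone was 2.34 times the sum of DNMT3A and DNMT3B with JIB-04 and 3.10 times with DMSO.

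None of the 7 genes was at least 2-fold lower or higher on the scale of TPM + 1. Among all 14450 genes, 6.88% were at least 2-fold lower with JIB-04 and 5.99% at least 2-fold higher. UHRF1 lay just inside the limit, with a ratio of 0.502 of TPM + 1 and 0.488 of TPM, and 6.96% of all genes had a lower or equal ratio. DNMT1 was next, at the 19.2 percentile. TET1 was at the 83.6 percentile and TET2 at the 86.4 percentile. The counting interval lay below 0 for 4 of the 7 genes and above 0 for 2, beside 46.2% and 27.7% of all genes. The median log2 ratio of the 7 was -0.21, beside -0.15 for all genes, with members on both sides of it, between -0.99 and 0.56.

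**Figure D2:**
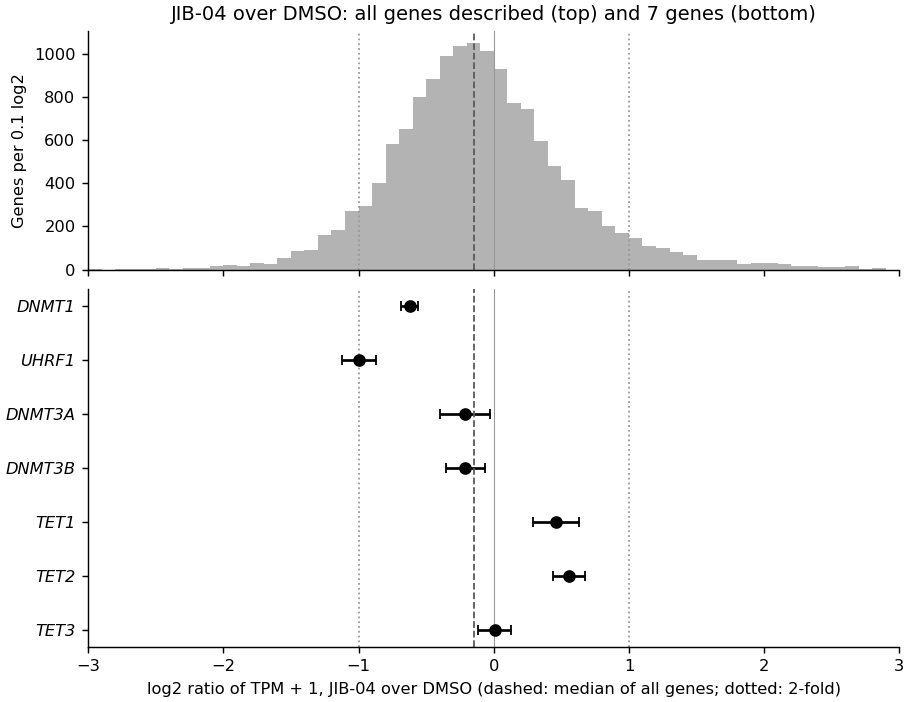
Top, number of genes per 0.1 step of the log2 ratio of TPM + 1, JIB-04 over DMSO, for the 14450 genes described. Bottom, the ratio of each of the 7 genes with its 95% counting interval. The intervals of DNMT3A and DNMT3B cross the dashed median of all genes at -0.15, UHRF1 touches the dotted 2-fold line, and TET1 and TET2 lie to the right.

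Coverage was then compared exon by exon, since it depends less on how reads were divided between transcripts. The files give 1 mean value for each exon of each transcript. Exons were cut where the annotated transcripts differ, and coverage per base was set on the TPM scale. Stretches of at least 30 bases with a coverage of at least 1 in either library were counted. In DNMT1 all 43 stretches were lower with JIB-04, with log2 ratios from -1.25 to -0.28. In UHRF1 all 20 were lower, from -1.30 to -0.36. The exons held by most transcripts gave log2 ratios of -0.62 for DNMT1 and -0.99 for UHRF1, the values of the whole genes.

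In TET1, 11 of the 12 counted stretches were higher with JIB-04, and in TET2, 10 of 11. The lower one among those counted was in each case the first exon of the main transcript, at 1.04 with JIB-04 and 1.32 with DMSO in TET1, and at 1.21 with JIB-04 and 2.36 with DMSO in TET2. Under the coverage limit, 2 stretches that only the short TET2 transcript NM_017628 holds were at 0.15 with JIB-04 and 0.26 with DMSO, and its first exon was listed at 0 in both. First exons were thinly covered throughout these libraries. In 2304 genes with a single transcript, their coverage relative to the transcript was lower with JIB-04 by a median log2 difference of -0.07. The inner exons of TET2, 4729 bases with the long coding exon and part of the catalytic region, were covered at 10.3 with JIB-04 and 6.21 with DMSO. The inner exons of TET1 were covered at 4.66 with JIB-04 and 2.88 with DMSO.

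Coverage of TET3 differed in direction between parts of the gene, and no interval was computed for the parts. Its last exon, which makes up 68.3% of the annotated bases, was covered at 7.78 with JIB-04 and 7.20 with DMSO. The inner exons were covered at 5.33 with JIB-04 and 6.23 with DMSO, and 8 of the 9 were lower with JIB-04. Its first exon stood at 5.29 with JIB-04 and 9.16 with DMSO. Across genes with a single transcript, inner exons shifted by a median log2 difference of 0.02 and last exons by -0.03, so the libraries as a whole showed no median shift of that size. The spread of these shifts between genes was not computed, so it is unknown whether the TET3 parts are unusual.

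**Figure D3:**
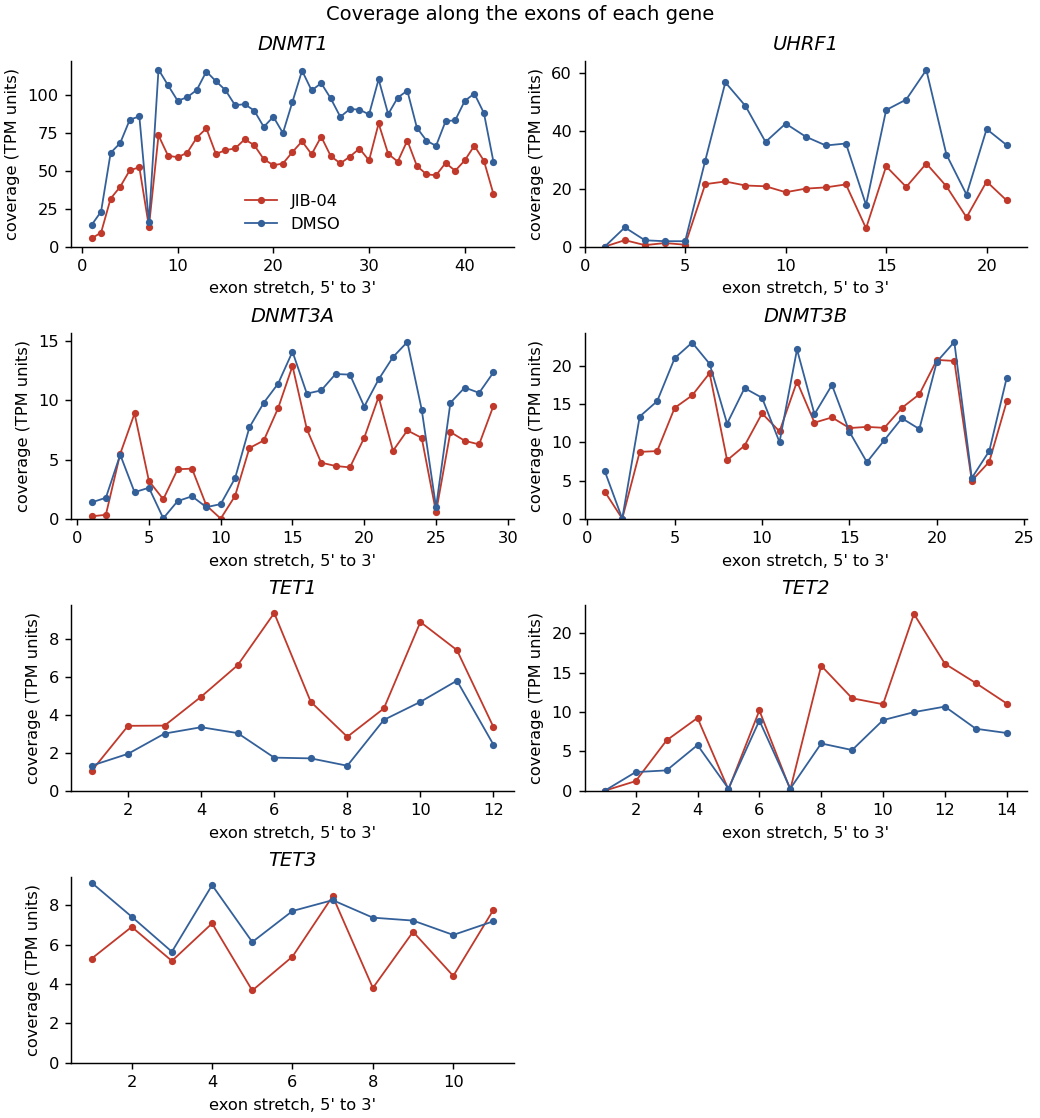
Coverage of each exon stretch on the TPM scale, from the 5′ end to the 3′ end of each gene, with JIB-04 in red and DMSO in blue. The red line lies below the blue one along all of DNMT1 and UHRF1 and above it along most of TET1 and TET2. In DNMT3A it lies above in the upstream exons that follow the first ones and below in the shared exons, and in TET3 it is above at the last exon and at 1 inner exon.

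DNMT3A is read from more than 1 start. The long form DNMT3A1 (NM_022552 and NM_175629) begins with exons that the short form DNMT3A2 (NM_153759) lacks, and both share the exons for the catalytic domain. The 17 shared stretches (chr2:25455830-25471121, hg19) were all lower with JIB-04, with a mean coverage of 8.20 with JIB-04 and 11.6 with DMSO, a log2 ratio of -0.45. The 5 stretches upstream of the DNMT3A2 start (chr2:25497810-25537030, hg19) were all higher, at 4.86 with JIB-04 and 3.23 with DMSO, a log2 ratio of 0.47. The stretch nearest the first exons was near level, at 5.48 with JIB-04 and 5.41 with DMSO. Upstream coverage was therefore 59.3% of the shared coverage with JIB-04 and 27.9% with DMSO. A last exon that only the truncated transcripts NM_001320892 and NM_175630 hold was at 1.64 with JIB-04 and 0.03 with DMSO. The truncated transcripts also hold some of the upstream stretches, so the upstream coverage mixes them with the long forms. The upstream stretches that they lack were at 4.18 and 4.23 with JIB-04 and at 1.48 and 1.89 with DMSO. The first exons of the long forms did not follow the exons after them, at 0.24 with JIB-04 and 1.51 with DMSO. The gene total of -0.21 thus combined lower and higher parts of the gene. The whole gene rests on only 335 fragments with JIB-04 and 517 with DMSO. The 816 upstream bases hold fewer, and no interval was computed for the parts, so their differences are uncertain.

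The transcript estimates of DNMT3A follow. DNMT3A2 was estimated at 1.86 TPM with JIB-04 and 6.16 TPM with DMSO, or 19.4% of the gene with JIB-04 and 54.8% with DMSO. NM_022552 was at 2.41 TPM with JIB-04 and 1.28 TPM with DMSO, and NM_175629 made up 15.6% of the gene with JIB-04 and 10.6% with DMSO. NM_001320893, another short form, was estimated at 1.87 TPM with JIB-04 and 1.42 TPM with DMSO, although the stretch that it alone holds was covered at 0.001 with JIB-04 and 1.23 with DMSO. The truncated NM_001320892 was at 1.05 TPM with JIB-04 and 0.06 TPM with DMSO, and NM_175630 at 0.84 TPM with JIB-04 and 0.04 TPM with DMSO. The forms with upstream exons, apart from the noncoding one, were thus all estimated higher with JIB-04. The noncoding NR_135490 was at 0.04 TPM with JIB-04 and 1.11 TPM with DMSO. The exons that only DNMT3A2 holds were thinly covered, at 1.40 with JIB-04 and 1.85 with DMSO, a smaller difference than that of its estimate.

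**Figure D4:**
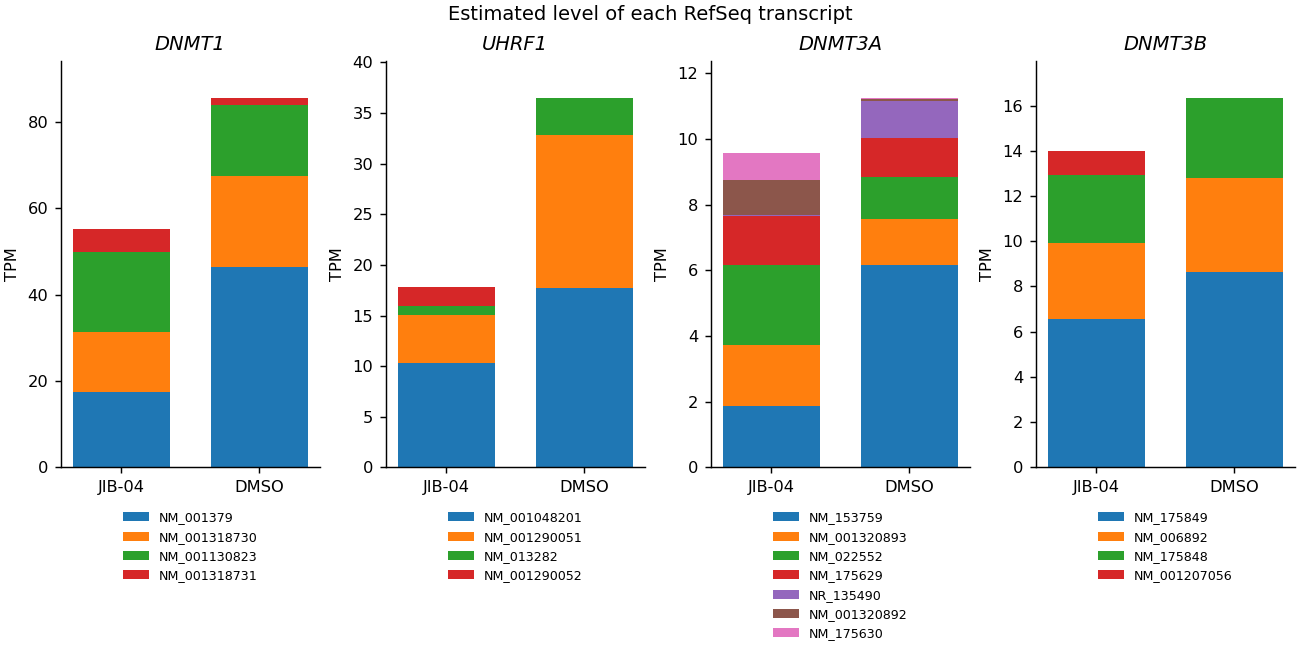
Estimated TPM of each annotated RefSeq transcript, stacked to the gene total, in the JIB-04 library (left bar) and the DMSO library (right bar). Transcripts listed at 0 in both libraries are left out. The NM_153759 block of DNMT3A is 1.86 TPM with JIB-04 and 6.16 TPM with DMSO, and the NM_001379 block of DNMT1 is 17.5 TPM with JIB-04 and 46.3 TPM with DMSO.

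Exons that set the transcripts of DNMT3B apart are printed here, because the transcript estimates turn on them. Capitals mark the alternative exon, with 20 bases of each neighbouring exon in lower case, read from the GENCODE v29 transcripts with GRCh38 coordinates. The first DNMT3B exon (chr20:32793536-32793595, plus strand) is part of NM_006892, or DNMT3B1, alone. The other DNMT3B exons (chr20:32805338-32805407 and chr20:32806209-32806327, plus strand) lie in the catalytic domain and are skipped in NM_175849, or DNMT3B3, a form without catalytic activity.
DNMT3B, 60 bases: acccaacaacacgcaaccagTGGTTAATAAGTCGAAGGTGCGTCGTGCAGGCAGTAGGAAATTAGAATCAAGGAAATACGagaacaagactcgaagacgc
DNMT3B, 70 bases: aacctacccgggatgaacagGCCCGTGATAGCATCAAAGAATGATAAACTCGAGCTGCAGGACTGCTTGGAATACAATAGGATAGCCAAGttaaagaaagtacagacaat
DNMT3B, 119 bases: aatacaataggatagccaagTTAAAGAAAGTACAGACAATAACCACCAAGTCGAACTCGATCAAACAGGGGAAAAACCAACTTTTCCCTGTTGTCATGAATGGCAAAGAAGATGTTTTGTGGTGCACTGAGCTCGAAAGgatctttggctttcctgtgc
In DNMT3B the exons left out of DNMT3B3 were covered at 36.3% of their neighbours with JIB-04 and 36.3% with DMSO. The 60-base exon of DNMT3B1 was at 72.0% of its neighbours with JIB-04 and 52.8% with DMSO, at coverages of 11.4 with JIB-04 and 10.04 with DMSO. No interval was computed for so short an exon, so its difference between libraries is uncertain. By estimate, DNMT3B3 was the most abundant form in both libraries, at 6.55 TPM with JIB-04 and 8.64 TPM with DMSO. DNMT3B1 was at 3.37 TPM with JIB-04 and 4.18 TPM with DMSO, which is 24.1% of the gene with JIB-04 and 25.6% with DMSO, less than the coverage of its own exon and without that exon's difference between libraries. The order of the forms therefore rests on how StringTie divided the reads. NM_175848 was at 2.99 TPM with JIB-04 and 3.51 TPM with DMSO. NM_001207056 was at 1.08 TPM with JIB-04 and listed at 0 with DMSO, and NM_001207055 and NM_175850 were listed at 0 in both. Along the gene, 9 of the first 10 exons of NM_006892 were lower with JIB-04, with a mean coverage of 10.8 with JIB-04 and 14.6 with DMSO. From exon 11 on, 7 stretches were lower and 6 higher, at 14.8 with JIB-04 and 16.4 with DMSO.

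Of the DNMT1 transcripts, NM_001379 was at 17.5 TPM with JIB-04 and 46.3 TPM with DMSO, NM_001130823 at 18.6 TPM with JIB-04 and 16.6 TPM with DMSO, and NM_001318730 at 13.8 TPM with JIB-04 and 21.1 TPM with DMSO. NM_001318731 was at 5.36 TPM with JIB-04 and 1.52 TPM with DMSO. StringTie divides reads among these overlapping transcripts, so their shares are estimates and are not read here as a change of splicing.

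The transcripts of UHRF1 differ at their starts, and all first exons were weakly covered. The first exon of NM_001048201 was at 2.22 with JIB-04 and 6.62 with DMSO, and that of NM_001290051 at 0.51 with JIB-04 and 2.17 with DMSO. The estimates were 10.3 TPM with JIB-04 and 17.7 TPM with DMSO for NM_001048201, and 4.79 TPM with JIB-04 and 15.2 TPM with DMSO for NM_001290051. NM_013282 was at 0.88 TPM with JIB-04 and 3.62 TPM with DMSO, NM_001290052 at 1.86 TPM with JIB-04 and listed at 0 with DMSO, and NM_001290050 listed at 0 in both. Nearly all TET2 RNA was the full-length NM_001127208, at 10.3 TPM with JIB-04 and 6.55 TPM with DMSO, with the short NM_017628 at 0.14 TPM with JIB-04 and 0.25 TPM with DMSO. TET1 and TET3 have 1 annotated transcript each. No annotated exon of another gene overlapped the exons of the 7 genes.

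Among 12 listed partners of maintenance methylation, 11 reached 1 TPM, and 8 of these had a log2 ratio below 0, beside 8711 of all 14450 genes. Of the 11, 4 passed 2-fold downward and none upward, beside 6.88% of all genes downward and 5.99% upward. The median of the log2 ratios was -0.52. CDCA7, which recruits the remodeller HELLS to chromatin, was at 10.7 TPM with JIB-04 and 48.2 TPM with DMSO (log2 ratio -2.07). HELLS, which opens nucleosomal DNA to methylation, was at 6.49 TPM with JIB-04 and 20.04 TPM with DMSO (log2 ratio -1.49). The other genes past 2-fold were PCLAF, at a log2 ratio of -1.24, whose ubiquitinated protein binds DNMT1, and the replication clamp PCNA, at -1.06, both named after their values were seen. At the other end, UHRF2, the paralogue of UHRF1, was at 18.7 TPM with JIB-04 and 11.2 TPM with DMSO (log2 ratio 0.69), so that the paralogues differed in opposite directions. USP7, a deubiquitinase that binds DNMT1 and UHRF1, was at 76.2 TPM with JIB-04 and 66.5 TPM with DMSO (log2 ratio 0.19).

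Most genes of DNA replication were lower with JIB-04, as DNMT1 and UHRF1 were. Of 30 S-phase genes, 29 had a log2 ratio below 0, beside 8711 of all 14450 genes. In this list 6 passed 2-fold downward and none upward, beside 6.88% of all genes downward and 5.99% upward. Their median was -0.89. Their summed level was 1542 TPM with JIB-04 and 2521 TPM with DMSO. GINS1, a subunit of the replicative helicase complex, was at 11.1 TPM with JIB-04 and 30.4 TPM with DMSO, and RFC3, a subunit of the clamp loader, at 24.0 TPM with JIB-04 and 59.7 TPM with DMSO. TK1 was the exception, at 115 TPM with JIB-04 and 103 TPM with DMSO, and CHAF1A, of the histone chaperone CAF-1, was among the least lowered at 31.9 TPM with JIB-04 and 39.5 TPM with DMSO. The ratio of DNMT1 was nearer to 0 than the median of these genes, and that of UHRF1 was further from it. The part of the S-phase genes' shift in the lower DNMT1 and UHRF1 was not tested.

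Base excision repair completes TET-dependent demethylation, through the glycosylase TDG. Of 14 such genes, 3 passed 2-fold downward and 1 upward, beside 6.88% and 5.99% of all genes, and the median of the log2 ratios was -0.53. The glycosylase NEIL3 was at 6.08 TPM with JIB-04 and 14.8 TPM with DMSO, and the endonuclease APEX1 at 82.3 TPM with JIB-04 and 178 TPM with DMSO. NEIL1, a glycosylase of the same family as NEIL3, was the gene past 2-fold in the other direction, at 15.7 TPM with JIB-04 and 5.42 TPM with DMSO. POLB, the gap-filling polymerase, was level at 52.6 TPM with JIB-04 and 51.7 TPM with DMSO, and TDG was at 42.1 TPM with JIB-04 and 52.1 TPM with DMSO.

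Among proteins with CXXC domains and regulators of TET, 12 of 14 reached 1 TPM, and 3 were at least 2-fold higher and none lower, beside 5.99% of all genes higher and 6.88% lower. These were KDM2B, at 55.9 TPM with JIB-04 and 17.3 TPM with DMSO, KDM2A, at 145 TPM with JIB-04 and 60.1 TPM with DMSO, and GADD45A, at 26.2 TPM with JIB-04 and 9.63 TPM with DMSO. KDM2A and KDM2B are CpG-binding proteins that are themselves Jumonji demethylases, and GADD45A is a stress-response gene linked to active demethylation. QSER1, which guards bivalent promoters from DNMT3 enzymes together with TET1, was at 13.5 TPM with JIB-04 and 22.6 TPM with DMSO. CXXC5, a CXXC protein that can lower TET2, was at 24.4 TPM with JIB-04 and 32.3 TPM with DMSO. The median of the list was -0.06.

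No reader of methylated DNA was past 2-fold in either direction among 11 listed, beside 6.88% of all genes lower and 5.99% higher. Their median was 0.03. ZBTB33 (Kaiso) was at 5.77 TPM with JIB-04 and 10.98 TPM with DMSO, MBD2 at 23.9 TPM with JIB-04 and 25.3 TPM with DMSO, MBD6 at 56.9 TPM with JIB-04 and 48.4 TPM with DMSO, and ZBTB4 at 43.2 TPM with JIB-04 and 30.6 TPM with DMSO. The methionine cycle, which makes the methyl donor, had none of 13 genes past 2-fold, beside 6.88% lower and 5.99% higher among all genes. Its median was -0.34. Its extremes were MAT1A at 19.7 TPM with JIB-04 and 33.6 TPM with DMSO, MAT2B at 28.0 TPM with JIB-04 and 45.9 TPM with DMSO, MTR at 19.2 TPM with JIB-04 and 13.6 TPM with DMSO, and CBS at 284 TPM with JIB-04 and 202 TPM with DMSO. Of 15 genes for 2-oxoglutarate and the cofactors of TET enzymes, only SLC23A1, a vitamin C transporter, was past 2-fold, at 1.98 TPM with JIB-04 and 7.24 TPM with DMSO. That is 1 of 15, near the 6.88% of all genes lower, and the median of the list was -0.29. IDH3A was at 33.9 TPM with JIB-04 and 65.3 TPM with DMSO, FH at 69.3 TPM with JIB-04 and 127 TPM with DMSO, IDH3G at 106 TPM with JIB-04 and 92.9 TPM with DMSO, and IDH2 at 299.5 TPM with JIB-04 and 239.6 TPM with DMSO.

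**Figure D5:**
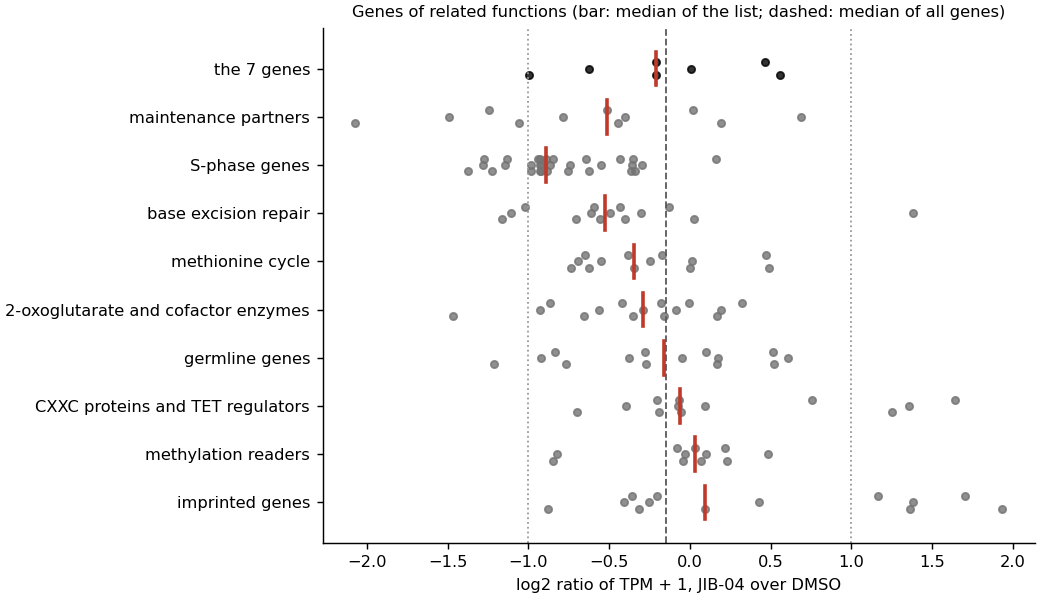
Log2 ratio of TPM + 1, JIB-04 over DMSO, of each gene at 1 TPM or more in either library, by list. Red bars are list medians, the dashed line is the median of all genes and dotted lines mark 2-fold. The S-phase genes have a median of -0.89 and the maintenance partners one of -0.52, while the median of the methylation readers is 0.03.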

How the data were processed

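Tools in the submitters' processing notes are StringTie 1.3.3b, HISAT2 2.0.5, Bowtie2 2.2.6, FastQC 0.11.5 and Trimmomatic 0.32, with hg19 as the build. Per the file headers, the authors ran StringTie on annotated RefSeq transcripts with a strand setting, and the deposited values are coverage, FPKM and TPM per transcript and coverage per exon, with no counts. Transcript TPM was summed per Entrez ID. Symbols came from a RefSeq table of GRCh38.p14. Log2 ratios used TPM + 1. The fragments of a gene were taken as its covered bases divided by 202, the most frequent total among weakly covered genes, and gave exact binomial intervals (ratios) and Poisson intervals (levels) at 95%, for counting error only. Genes at 1 TPM or more in either library were described. Named from each list were up to 4 genes of mean TPM of at least 5, the 2 highest and 2 lowest ratios, with exceptions stated where made. KDM2A, TDG, SLC23A1, ALB, APOA1, PTPRC, CDH5, CD14, COL3A1, IGF2, DDX4, DAZL and SYCP3 lie outside that rule and were chosen after their values were seen. Members and lists were chosen with earlier results of these data known. The interval was run on simulated Poisson counts, the counting error it assumes, which cannot test other sources of error. Promoters came from RefSeq and exon sequences from GENCODE v29. Python 3.11.15, pandas 2.3.3 and SciPy 1.17.1 were used. Alternatives covered the pseudocount, FPKM, scaling, filter, threshold, and the transcripts or exons summed, the last of these chosen after seeing the data.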

Additional observations from a re-analysis of the deposited data

How the results depend on the processing

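All values are log2 ratios, JIB-04 over DMSO, unless counts. With libraries scaled to a common median, DNMT1 was at -0.47, UHRF1 at -0.85, TET2 at 0.70, TET3 at 0.14 and the median of the 7 genes at -0.066. The median of all genes was then -0.0047. After quantile normalization, DNMT1 was at -0.51, DNMT3B at -0.052, UHRF1 at -0.84, TET2 at 0.68 and the median at -0.052, beside -0.046 for all genes. With the most abundant transcript in place of the gene, DNMT1 was at -1.36, DNMT3A at -1.32, UHRF1 at -0.73 and the median at -0.35. All genes then had a median of -0.14. At this setting 2 of the 7 genes were at least 2-fold lower, beside 1285 of all genes. With a pseudocount of 5, UHRF1 was at -0.86, TET1 at 0.24 and TET2 at 0.39, and 409 of all genes were at least 2-fold lower and 439 higher, beside 994 and 865 with a pseudocount of 1. With a pseudocount of 0.1, 1 of the 7 genes, UHRF1, was at least 2-fold lower, at -1.03, beside 1436 of all genes. A 1.5-fold threshold gave 2 of the 7 genes lower, and 3030 of all 14450 genes lower and 1853 higher. A 3-fold threshold gave 154 of all genes lower and 318 higher. DNMT1, DNMT3A, DNMT3B and UHRF1 stayed below 0 and TET1 and TET2 above 0 in all 7 alternatives run for each, and TET3 was below 0 in 1 of 7. A changed pseudocount cannot change the sign of a ratio, so those alternatives could not come out otherwise. TET1 and TET3 have 1 annotated transcript each, so the transcript and exon alternatives repeat their main values. With 1 library per condition no library could be left out, and no paired analysis was possible because each condition has 1 library. The spread between cultures is unknown. Transcript shares rest on few distinguishing bases. The causes of these differences were not tested.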

Other observations

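Of 27 germline genes, which methylation silences in most somatic cells, 14 reached 1 TPM in either library. HORMAD1 alone passed 2-fold downward with JIB-04 and none upward, beside 6.88% of all genes downward and 5.99% upward, and the median of the log2 ratios was -0.16, beside -0.15 for all genes. HORMAD1, a meiotic chromosome axis protein, was at 4.75 TPM with JIB-04 and 12.3 TPM with DMSO. The cancer-testis antigen gene CTAG2 was at 88.6 TPM with JIB-04 and 169 TPM with DMSO, MAGEC1 at 8.75 TPM with JIB-04 and 7.68 TPM with DMSO, and MAGEB2 at 9.31 TPM with JIB-04 and 5.76 TPM with DMSO. Members of the CTAG and MAGE families have near-identical copies, so their values are uncertain. The germ cell genes DDX4, DAZL and SYCP3 were listed at 0 in both libraries.

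Of 20 imprinted genes, which carry parental methylation marks, 13 reached 1 TPM, and 5 passed 2-fold upward with JIB-04, none downward, beside 5.99% of all genes upward. Their median log2 ratio was 0.09. PLAGL1, a zinc finger gene, was at 82.5 TPM with JIB-04 and 20.9 TPM with DMSO (log2 ratio 1.93), and GRB10, a receptor adaptor, at 235 TPM with JIB-04 and 71.4 TPM with DMSO (1.70). The others past 2-fold, named after their values were seen, were NDN at 49.1 TPM with JIB-04 and 18.3 TPM with DMSO, MEG3 at 46.0 TPM with JIB-04 and 17.3 TPM with DMSO, and CDKN1C at 2.08 TPM with JIB-04 and 0.38 TPM with DMSO. H19, a noncoding RNA read from the maternal copy, was at 226 TPM with JIB-04 and 417 TPM with DMSO, while its neighbour IGF2 was at 9.02 TPM with JIB-04 and 8.40 TPM with DMSO. L3MBTL1 was at 6.39 TPM with JIB-04 and 8.80 TPM with DMSO. Neither methylation nor the parental copy was measured.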
